A study of Mus musculus with 6 samples.

Results

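Transcript levels of 30 genes that mark or maintain haematopoietic stem cells were followed across sorted mouse bone marrow stem cells that did or did not carry BCR/ABL. The genes were taken from a list of names. Each was represented by the probe set annotated to that gene alone with the highest mean signal over the 6 arrays. A probe set was found for 29 of the 30, out of 18193 genes measured. The exception was Ly6a, which encodes the Sca-1 antigen of the sort and is not analysed here.

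Of 3 groups with 2 arrays each, the vector group held stem cells transduced with an empty GFP vector. The BCR/ABL group held stem cells expressing BCR/ABL, the fused kinase that drives chronic myeloid leukaemia (CML), from untreated CML mice. The imatinib group held stem cells expressing BCR/ABL from CML mice given imatinib, an inhibitor of that kinase. All groups were sorted as GFP-positive, lineage-negative, c-Kit-positive and Sca-1-positive, so Kit and Ly6a took part in the sort. The sources used here give no mouse strain, age, imatinib dose, duration or pooling of animals. Nothing in the labels ties the 2 arrays of a group to separate mice. The p-values therefore reflect only how far these samples spread, and that spread may be technical.

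Haematopoietic stem cells are kept in place by a small set of transcription factors that bind together at blood enhancers, including Erg, Fli1, Tal1, Lmo2 and Runx1, and by factors such as Hlf, Mecom, Meis1 and Prdm16 that favour self-renewal. The most immature cells carry surface receptors such as endothelial protein C receptor (Procr), Tek and Slamf1. Progenitors that begin to lose self-renewal gain Flt3 and Cd48. A sort on c-Kit and Sca-1 takes both, so a bulk level from such a sort reflects a mixture.

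Values given as signal are the deposited linear array intensities. Values given on the log2 scale are quantile-normalized log2(signal + 16), whose floor is 4, and they understate differences of dim genes. Precision is limited by having 2 arrays per group. The signal of Kit, the receptor used in the sort, was 1637 and 2125 on the vector arrays, 1332 and 1116 on the BCR/ABL arrays, and 2659 and 2602 on the imatinib arrays. Kit was thus present on all arrays, lowest in BCR/ABL and highest with imatinib. The vector arrays stood apart from each other: 3694 probe sets differed more than 2-fold between them, against 860 in BCR/ABL and 1611 with imatinib. In bulk RNA, fewer cells of a type and less RNA per cell cannot be told apart.

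The stem cell genes were spread unevenly over the arrays. Imatinib replicate 2 held the highest level of 20 of the 29 genes, and vector replicate 1 the lowest level of 14. Between replicates, 22 of 29 genes were higher in vector replicate 2 than in replicate 1, with a median log2 difference of 0.42. In the imatinib group 26 of 29 were higher in replicate 2, with a median log2 difference of 0.55. In the BCR/ABL group 7 were higher in replicate 2 and 22 lower, with a median of -0.14. The replicates of vector and imatinib therefore differed in this gene set by amounts like the median differences between groups, which were 0.07, 0.36 and 0.63. More than 2-fold differences between replicates occurred for 8 genes in vector (Hlf, Mecom, Ndn, Tek, Robo4, Esam, Slamf1 and Cd27). They occurred for 6 with imatinib (Hlf, Meis1, Prdm16, Tek, Robo4 and Cd27) and for 2 in BCR/ABL (Prdm16 and Flt3).

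**Figure D1:**
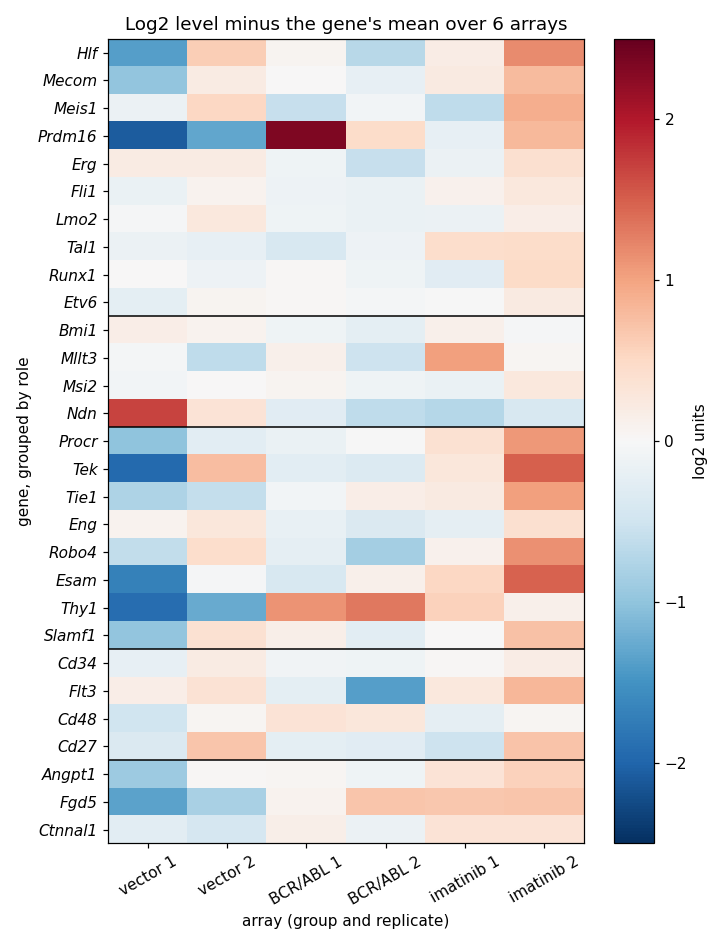
Log2 level of each of 29 stem cell genes (rows, grouped by role) minus its mean over the 6 arrays (columns), in log2 units. Imatinib replicate 2 is the highest array for 20 genes and vector replicate 1 the lowest for 14.

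Among the transcription factors, the self-renewal genes Hlf, Mecom, Meis1 and Prdm16 were measured least tightly, with standard errors of a log2 difference from 0.39 to 0.72 against 0.12 to 0.26 for the other 6. Hlf, a factor whose expression is restricted to primitive cells, had a signal of 336 and 1324 on the vector arrays, 918 and 520 on the BCR/ABL arrays, and 992 and 1973 on the imatinib arrays. Mecom, which encodes the Evi1 zinc finger protein that stem cells need to renew, had a signal of 1466 and 3457 on the vector arrays, 3018 and 2563 on the BCR/ABL arrays, and 3420.5 and 4934 on the imatinib arrays. For both genes vector replicate 1 was the lowest array and imatinib replicate 2 the highest, and the vector and BCR/ABL arrays overlapped. Probe sets disagreed in sign for BCR/ABL minus vector, from -0.36 to 0.07 in the 2 of Hlf and from -0.24 to 0.29 in the 3 of Mecom. The other 2 Mecom probe sets lay near the floor on all arrays, with signals from 0.26 to 9.05. Meis1, a Hox cofactor, had a signal of 272 and 405 on the vector arrays, 168 and 258 on the BCR/ABL arrays, and 181 and 572 on the imatinib arrays. Its BCR/ABL signals lay below both vector signals, but these groups overlapped after normalization. All 3 Meis1 probe sets were lower in BCR/ABL than in vector, with log2 differences from -1.185 to -0.27. On the one with the largest difference these groups did not overlap, with signals of 184 and 142 for vector and 41.9 and 64.3 for BCR/ABL. Prdm16, a zinc finger regulator of stem cell maintenance, had a signal of 23.3 and 49.6 on the vector arrays, 817 and 202 on the BCR/ABL arrays, and 129 and 302 on the imatinib arrays. Every array with BCR/ABL lay above both vector arrays for Prdm16, and the BCR/ABL replicates lay far apart. All 4 Prdm16 probe sets had the same order of BCR/ABL over vector, with log2 differences from 1.25 to 3.08. On a dimmer one, with signals from 8.77 to 183, imatinib replicate 1 lay below vector replicate 2.

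Tal1, a basic helix-loop-helix factor, had a log2 level of 11.09 ± 0.03 for vector (SD, n = 2), 10.99 ± 0.19 for BCR/ABL and 11.71 ± 0.01 for imatinib. Its signal was 2165 and 2134 on the vector arrays, 1894 and 2238 on the BCR/ABL arrays, and 3308 and 3258 on the imatinib arrays, so both imatinib arrays lay above the other 4. Fli1, an ETS factor, had a signal of 2739 and 3333 for vector, 2878 and 2782 for BCR/ABL, and 3314 and 3625 for imatinib. Erg, another ETS factor, had a signal of 698 and 678 on the vector arrays, 549 and 383 on the BCR/ABL arrays, and 549 and 818 on the imatinib arrays. Its BCR/ABL arrays lay below both vector arrays, and its imatinib arrays spanned them. Lmo2, the adaptor that joins Tal1 to its partners, ran from 5237 to 7282 over the 6 arrays, and Runx1, the DNA-binding core factor, from 1637 to 2695. Etv6, an ETS repressor needed for stem cell survival in marrow, ran from 5330 to 7205. In Runx1 the 6 probe sets did not share a sign, with BCR/ABL minus vector log2 differences from -0.41 to 1.49. The lowest came from a probe set near the floor, with signals from 2.32 to 22.16, and 1 other was below 0, at -0.011.

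Of the chromatin and RNA regulators, Bmi1, a Polycomb protein that represses the Cdkn2a locus, had a log2 level of 11.24 ± 0.05 for vector, 10.94 ± 0.10 for BCR/ABL and 11.17 ± 0.12 for imatinib. Its BCR/ABL arrays lay below all the others. On the second Bmi1 probe set the groups overlapped, with a log2 difference of -0.12 for BCR/ABL minus vector. Mllt3, a reader of acylated histones in transcription elongation, had a signal of 923 and 603 on the vector arrays, 1070 and 666 on the BCR/ABL arrays, and 1987 and 1017 on the imatinib arrays. Msi2, an RNA-binding protein, ran from 4389 to 5817. Ndn, a growth suppressor of the necdin family, had a signal of 81.4 and 18.95 in vector and between 0.79 and 6.36 on the other 4 arrays. Those 4 values lie near the floor and have no order.

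**Figure D2:**
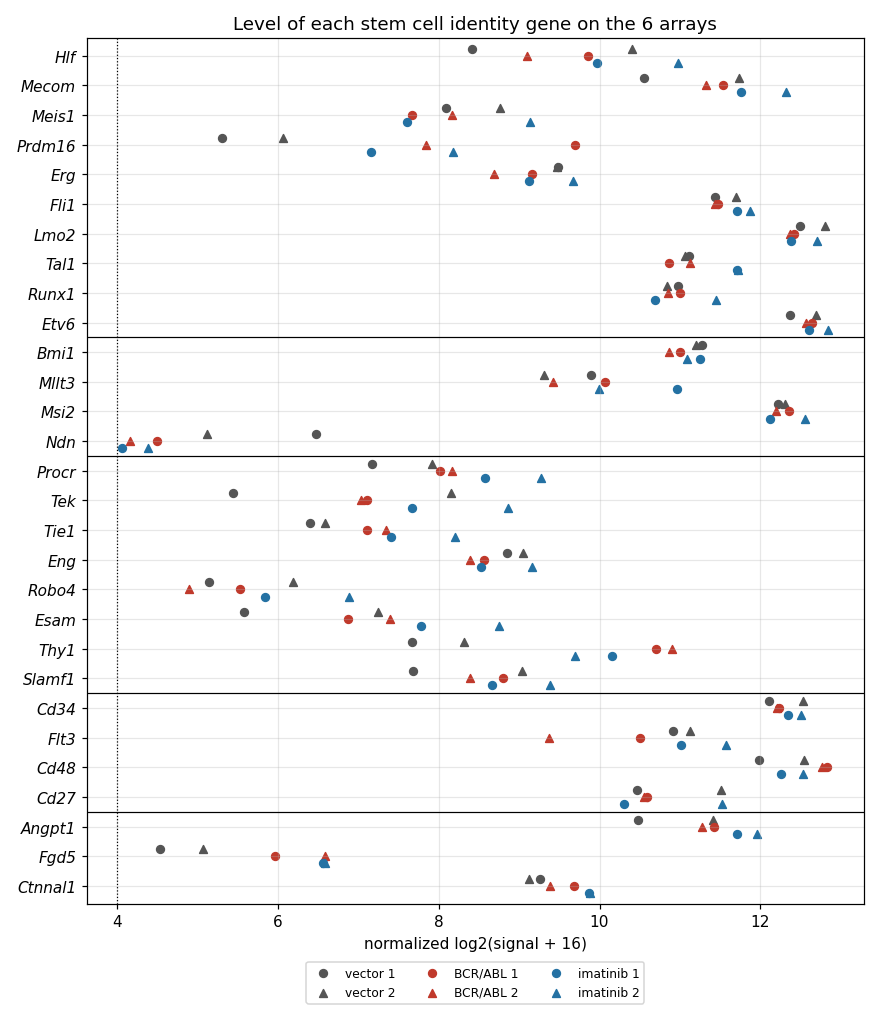
Quantile-normalized log2(signal + 16) of each of 29 stem cell genes on each array, with circles for replicate 1 and triangles for replicate 2; the dotted line is the floor of 4. Thy1 lies below 9 in both vector samples and above 9 in the other 4, and both imatinib samples of Tal1 lie to the right of the rest.

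Of the receptors and surface proteins, Thy1, a glycosylphosphatidylinositol-anchored protein that mouse stem cells carry at a low level, had a signal of 200 and 289 on the vector arrays, 1677 and 1889 on the BCR/ABL arrays, and 1124 and 827 on the imatinib arrays. The 3 groups did not overlap for Thy1, with imatinib between the others. Procr had a signal of 141 and 216 on the vector arrays, 221 and 259 on the BCR/ABL arrays, and 371 and 628 on the imatinib arrays. Its 3 groups did not overlap either, in the order vector, BCR/ABL, imatinib.

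Angiopoietin signalling through Tek is known to help keep marrow stem cells quiescent. Tek, the angiopoietin receptor, had a signal of 27.8 and 255 on the vector arrays, 104 and 108 on the BCR/ABL arrays, and 189 and 478 on the imatinib arrays. Tie1, its co-receptor, had a signal of 76.6 and 76.8 for vector, 104 and 139 for BCR/ABL, and 157 and 307 for imatinib. For Tie1 the groups did not overlap, while the Tek vector arrays lay on either side of both BCR/ABL arrays. Angpt1, the ligand, had a signal of 1389 and 2721 on the vector arrays, 2793 and 2455 on the BCR/ABL arrays, and 3337 and 3839 on the imatinib arrays, with both imatinib arrays above the other 4. Its dimmer second probe set had 327 and 499 for vector, 758 and 583 for BCR/ABL, and 516 and 1312 for imatinib. After normalization imatinib overlapped both other groups there.

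The 250 bases upstream of the start of Tie1 (GRCm38.p6, chr4:118489850-118490099, minus strand) and of Hlf (GRCm38.p6, chr11:90390918-90391167, minus strand) are shown because 3 genes of the list, Erg, Fli1 and Etv6, encode ETS factors. They are the first 2 genes by p with imatinib over vector that have a single RefSeq promoter entry lying outside the annotated gene. Capitals mark the ETS core GGAAG on either strand. Sequences are from RefSeq and run 5′ to 3′ on the gene's strand.
Tie1: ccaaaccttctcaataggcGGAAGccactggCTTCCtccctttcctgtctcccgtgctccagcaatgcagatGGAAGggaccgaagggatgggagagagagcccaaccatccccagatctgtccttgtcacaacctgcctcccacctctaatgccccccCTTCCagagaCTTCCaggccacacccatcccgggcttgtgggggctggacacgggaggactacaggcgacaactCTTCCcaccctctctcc
Hlf: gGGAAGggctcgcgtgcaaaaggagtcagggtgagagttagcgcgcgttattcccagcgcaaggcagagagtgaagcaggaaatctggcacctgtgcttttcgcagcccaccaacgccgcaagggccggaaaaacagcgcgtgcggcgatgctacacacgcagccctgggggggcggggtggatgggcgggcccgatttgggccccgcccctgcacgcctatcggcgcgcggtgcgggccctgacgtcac
The Tie1 window held 6 matches and the Hlf window 1. Over 32 windows of 24 of the genes, 53.1% held GGAAG, against 64.1% of 32851 windows of the same length in the RefSeq table. The E-box CAGNTG was in 40.6% against 44.8%, the RUNX motif TGTGGT in 6.2% against 14.0%, and the GATA motif AGATAA in 6.2% against 10.0%, all on both strands. No entry was present for Angpt1, Esam, Fli1, Lmo2 and Thy1.

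Esam, an adhesion molecule of endothelium and stem cells, had a signal of 33.3 and 130 on the vector arrays, 83.4 and 144 on the BCR/ABL arrays, and 208 and 440 on the imatinib arrays. Robo4, a receptor that helps to anchor stem cells in the marrow, had a signal of 18.55 and 54.8 for vector, 23.4 and 12.5 for BCR/ABL, and 44.0 and 119 for imatinib. Both were highest on imatinib replicate 2, and for Esam both imatinib arrays lay above the other 4. The RefSeq annotation places Robo4 and Esam on chromosome 9 with 2 protein-coding genes between them. Slamf1, a marker of long-term stem cells, had a signal of 202 and 492 on the vector arrays, 416 and 305 on the BCR/ABL arrays, and 397 and 680 on the imatinib arrays, with overlap. Eng, a co-receptor for transforming growth factor beta, had a signal of 451 and 499 for vector, 347 and 307 for BCR/ABL, and 361 and 579 for imatinib. Its BCR/ABL arrays had the lowest signal of the 6, and after normalization they overlapped the imatinib arrays.

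Endothelial cells express Tek, Tie1, Esam, Robo4, Eng and Procr too. The endothelial genes Cdh5, Kdr and Cldn5 had signals of 8.88 to 16.7, 1.74 to 31.6 and 0.56 to 13.9 over the 6 arrays. Those values lay at or near the floor, so other endothelial markers carried most of the sum given next. The 8 endothelial markers measured, of 8 listed, summed to a signal of 1358 and 1697 on the vector arrays, 1109 and 1012 on the BCR/ABL arrays, and 1086 and 1093 on the imatinib arrays. Mean log2 levels of Tek, Tie1, Procr and Esam were lowest in vector, that of Eng was highest in vector and that of Robo4 was lowest in BCR/ABL. By mean signal Tek was lowest in BCR/ABL, at 105.68 against 141.64 in vector. The part of endothelial cells in these levels was not tested.

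Among surface markers of progenitors, Flt3, the cytokine receptor gained as stem cells turn into multipotent progenitors, had a signal of 1894 and 2214 on the vector arrays, 1471 and 637 on the BCR/ABL arrays, and 2053 and 2954 on the imatinib arrays. Both BCR/ABL arrays lay below the other 4. Cd48, a SLAM family protein absent from the most immature cells, had a signal of 4020 and 6081 on the vector arrays, 7102 and 6922 on the BCR/ABL arrays, and 4805 and 5704 on the imatinib arrays, so BCR/ABL was the highest group. Cd34, a sialomucin, ran from 4375 to 6020 and Cd27, a TNF receptor family member, from 1245 to 2919, each with overlap between BCR/ABL and vector.

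Fgd5, a gene used as a stem cell reporter, had a signal of 6.45 and 17.7 on the vector arrays, 36.05 and 74.7 on the BCR/ABL arrays, and 80.8 and 95.5 on the imatinib arrays. Every array with BCR/ABL was above both vector arrays, whose values lay near the floor. Ctnnal1, which encodes the alpha-catenin relative alpha-catulin and also serves as a reporter, had a signal of 598 and 527 for vector, 808 and 643 for BCR/ABL, and 925 and 940 for imatinib, with 3 groups that did not overlap. On its dimmer second probe set, with signals from 14.15 to 91.29, BCR/ABL and imatinib overlapped (log2 difference -0.24). Both lay above vector there.

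The first comparison asked how BCR/ABL changed these genes relative to vector. No stem cell gene passed the test, and the set was split, with 17 genes higher and 12 lower (20 and 9 with arrays centred on their medians). The largest differences were higher levels of Prdm16 and Thy1 and a lower level of Ndn. Flt3 and Bmi1 were lower and Cd48 higher, all short of the threshold. The log2 difference of Thy1 was 2.81 with a standard error of 0.28 (limma adjusted p = 0.0705).

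Of the 29 genes, 0 had a limma p under 0.05 adjusted over all 35877 probe sets, where 0.0613% of probe sets were called, 0.0585% higher and 0.00279% lower. An unadjusted p under 0.05 was reached by 4 genes that were higher, against 6.30% of probe sets, and by 3 that were lower, against 5.18%. Groups did not overlap for 7 genes that were higher (24.1%, against 23.5% of probe sets) and 6 that were lower (20.7%, against 19.7%). Over all genes, with 1 probe set each, the unadjusted shares were 7.16% higher and 5.55% lower, and the shares without overlap 23.9% and 20.1%. The shares of stem cell genes without overlap thus lie near the background. The median log2 difference was 0.07 over the 29 genes and 0.01 over all genes. It was -0.24 without vector replicate 1, with 9 genes higher and 20 lower, and it was also below 0 without BCR/ABL replicate 1, at -0.05. The sign of this median is thus not settled.

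Thy1 was the gene of the list with the smallest p. Its call depended on settings. Adjusted p was 0.0202 with an added constant of 1, 0.000439 with arrays centred on their medians, 0.0462 with no further scaling, 0.00934 with dim probe sets left out, 0.0466 with a robust prior and 0.0407 with probe sets averaged per gene. It was between 0.0553 and 0.636 with 1 array left out, 0.086 with a constant of 64, 0.14 with a prior without trend and 0.11 with replicate number as a block. In all of these the log2 difference lay between 2.499 and 3.122. Prdm16 had a log2 difference of 3.08 (SE 0.72, adjusted p = 0.272), which passed only with arrays centred on their medians (adjusted p = 0.0352). Fgd5 differed by 1.47 (SE 0.39, adjusted p = 0.308) and Ndn by -1.47 (SE 0.44, adjusted p = 0.343), both involving levels near the floor, and Ndn stood at -0.80 without vector replicate 1.

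Flt3 differed by -1.08 on the log2 scale (95% interval -2.03 to -0.14, adjusted p = 0.392) and Cd48 by 0.54 (0.07 to 1.00, adjusted p = 0.391). Without BCR/ABL replicate 2 Flt3 stood at -0.51, and without BCR/ABL replicate 1 at -1.64. Cd48 stood at 0.25 without vector replicate 1 and 0.81 without vector replicate 2. For Bmi1 the difference was -0.30 (-0.58 to -0.03, adjusted p = 0.402) and for Erg -0.55 (-1.19 to 0.10, adjusted p = 0.498), with -0.31 for Erg without BCR/ABL replicate 2. The second Bmi1 probe set stood at -0.12, with groups that overlapped. Several genes had differences near 0, with intervals that still allow a change: Runx1 at 0.02 (-0.58 to 0.62), Msi2 at 0.01 (-0.37 to 0.38) and Cd34 at -0.10 (-0.45 to 0.27). The 8 Msi2 probe sets ran from -1.91 to 0.11, and 7 shared the sign of the one used. The lowest had a signal of 717 and 170 on the vector arrays and 42.9 and 117 on the BCR/ABL arrays, without overlap. For Hlf and Tek the difference was 0.07 and 0.28, but the spread of the vector arrays left intervals of -1.64 to 1.78 and -1.95 to 2.51.

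**Figure D3:**
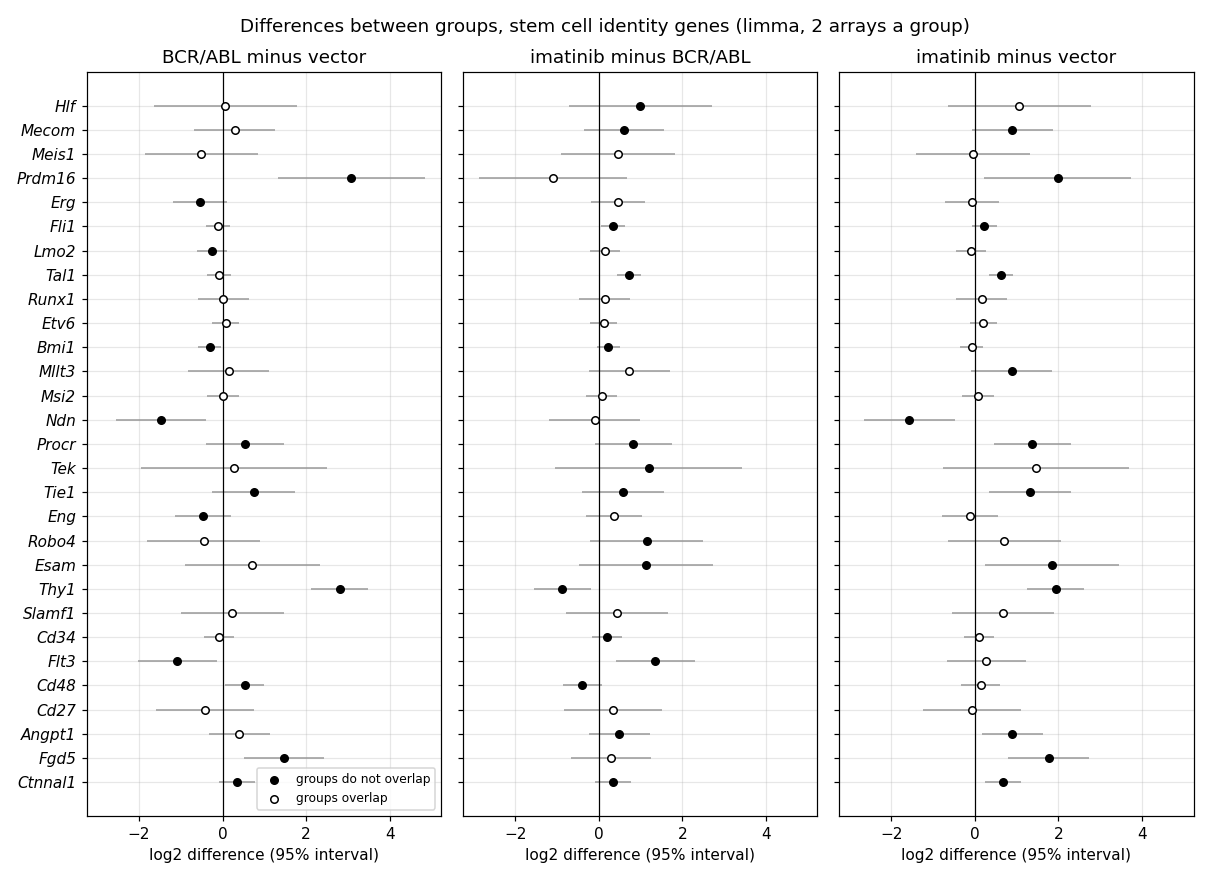
Log2 differences (points) with 95% intervals from limma for 29 stem cell genes in each comparison; filled points are genes whose groups do not overlap. Thy1 and Prdm16 lie farthest to the right in the first panel, and 25 of 29 points lie right of 0 in the second.

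The second comparison asked how imatinib changed these genes in BCR/ABL cells. Most stem cell genes were higher with imatinib, but none passed the test. Tal1, Flt3 and Fli1 had the smallest p among the higher genes, and the receptors Tek and Esam were more than 2-fold higher, each with an interval that included 0. Thy1 and Cd48, which had been higher with BCR/ABL, were lower with imatinib. The BCR/ABL arrays serve in both comparisons, so these opposite signs are not independent.

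Of the 29 genes, 0 passed, as did 0% of all probe sets by limma. Levels were higher for 25 and lower for 4 (17 and 12 with arrays centred on their medians), where 49.0% of all genes were higher. An unadjusted p under 0.05 was reached by 3 genes that were higher, against 6.26% of probe sets, and by 1 that was lower, against 8.34%. Groups did not overlap for 14 that were higher (48.3%, against 22.5% of probe sets) and 2 that were lower (6.90%, against 27.0%). Over all genes, with 1 probe set each, the unadjusted shares were 7.88% higher and 9.13% lower. The shares without overlap were 24.8% and 26.7%. With arrays centred on their medians the stem cell genes without overlap were 7 higher and 6 lower. An unadjusted p under 0.05 was then reached by 1 that was higher and 2 that were lower. Under a signal of 16 lay 0 to 2 of the 29 genes on an array, against 36.1% to 41.5% of all probe sets, so the background holds many values near the floor.

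The median log2 difference was 0.36, against -0.01 over all genes. It rested in part on imatinib replicate 2: it was 0.20 without that array, with 20 genes higher and 9 lower, and 0.61 without imatinib replicate 1. With arrays centred on their medians 17 of the 29 genes were higher, at a median of 0.14. That scaling moved the median of all genes by -0.27, and relative to it the stem cell genes lay 0.41 higher, with 0.37 as tested.

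Tal1 had a log2 difference of 0.72 (SE 0.12, adjusted p = 0.118), and both imatinib arrays lay above the other 4. Leaving out any 1 array kept it between 0.58 and 0.85. Flt3 differed by 1.36 (SE 0.39, adjusted p = 0.202), with 0.79 without BCR/ABL replicate 2 and 1.92 without BCR/ABL replicate 1, and Fli1 by 0.34 (SE 0.12, adjusted p = 0.278). The difference of Procr was 0.83 (adjusted p = 0.392), that of Robo4 1.15 (adjusted p = 0.417) and that of Bmi1 0.23 (adjusted p = 0.421). Fli1 and Bmi1 had a second probe set each, at 0.057 and -0.035, with groups that overlapped. Without imatinib replicate 2 Procr stood at 0.49 and Robo4 at 0.62. Robo4, near the floor in BCR/ABL, stood at 0.63 with an added constant of 64, and Bmi1 ran from 0.15 to 0.32 with 1 array left out. On the other side stood Thy1 at -0.88 (SE 0.28, adjusted p = 0.239) and Cd48 at -0.40 (adjusted p = 0.416), the latter at -0.26 without imatinib replicate 1. Differences of 1.19 for Tek, 1.13 for Esam and 1.00 for Hlf had intervals that included 0, as did -1.10 for Prdm16. With arrays centred on their medians Fli1 and Bmi1 lay at -0.037 and -0.124, Tal1 at 0.34 (adjusted p = 0.291), and Thy1 passed at -1.20 (adjusted p = 0.0477).

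By role, the 8 receptors and surface proteins had a median of 0.70, the 10 transcription factors 0.40, the 3 ligand and cytoplasmic genes 0.34, the 4 progenitor markers 0.27 and the 4 chromatin, RNA-binding and growth regulators 0.15. Whether these roles differ from each other was not tested.

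The third comparison set BCR/ABL cells from imatinib-treated mice against vector. Here 22 genes were higher and 7 lower (19 and 10 with arrays centred on their medians), and again none passed. Thy1, Fgd5, Procr, Tie1, Esam and Prdm16 were more than 2-fold higher with groups that did not overlap, and Ndn was lower. All 4 Prdm16 probe sets were higher, with log2 differences from 0.78 to 1.98, but on a dimmer one, at 1.17, the groups overlapped. Meis1 differed by -0.05 (95% interval -1.41 to 1.31), Cd27 by -0.07 (-1.24 to 1.10) and Erg by -0.08 (-0.72 to 0.57), intervals that allow a change either way. The 3 Meis1 probe sets ran from -0.81 to 0.10, and the lowest had imatinib below vector without overlap. This comparison shares its vector arrays with the first and its imatinib arrays with the second.

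Of the 29 genes, 0 passed, where limma called 0.0446% of probe sets, 0.0418% higher and 0.00279% lower. An unadjusted p under 0.05 was reached by 9 that were higher (31.0%, against 6.98% of probe sets) and 1 that was lower (3.45%, against 6.81%). Groups did not overlap for 12 that were higher (41.4%, against 19.7% of probe sets) and 1 that was lower (3.45%, against 22.4%). Over all genes, with 1 probe set each, the unadjusted shares were 9% higher and 7.7% lower. The shares without overlap were 21.9% and 22.3%. The median log2 difference was 0.63, against -0.001 over all genes.

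Single arrays decided the size of that median. It was 0.12 without vector replicate 1, with 19 genes higher and 10 lower, and 0.18 without imatinib replicate 2, with 20 higher and 9 lower. An added constant of 64 gave 0.40 and averaging the probe sets of a gene 0.37. Without vector replicate 1, 7 genes that were higher had an unadjusted p under 0.05, without vector replicate 2 there were 17, and without imatinib replicate 2 there were 5.

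Thy1 differed by 1.93 (SE 0.28, adjusted p = 0.122) and Tal1 by 0.63 (SE 0.12, adjusted p = 0.15). Thy1 passed with dim probe sets left out (adjusted p = 0.0379) and with arrays centred on their medians (adjusted p = 0.0181). Fgd5 differed by 1.77 (SE 0.39, adjusted p = 0.182), Ctnnal1 by 0.68 (adjusted p = 0.220) and Procr by 1.38 (adjusted p = 0.235). Tie1 differed by 1.32 (adjusted p = 0.267) and Angpt1 by 0.89 (adjusted p = 0.291). Angpt1 stood at 0.42 without vector replicate 1 and 1.36 without vector replicate 2. The interval of Tek included 0 (1.47, -0.76 to 3.70), and the other angiopoietin genes measured, Angpt2 and Angpt4, stood at -0.76 and 0.10. Ndn stood at -1.57 (adjusted p = 0.243), and at -0.90 without vector replicate 1. Intervals of the progenitor markers included 0, with 0.27 for Flt3 (-0.67 to 1.22), 0.14 for Cd48 (-0.33 to 0.61) and 0.11 for Cd34 (-0.25 to 0.47).

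Ordered by mean log2 level, imatinib was the highest group for 19 of the 29 genes, vector for 7 and BCR/ABL for 3. These orders were not counted over all genes, so they have no background here. Imatinib replicate 2 alone held the highest level of 20 of the 29. The genes highest in BCR/ABL were Prdm16, Thy1 and Cd48. The 7 highest in vector were Meis1, Erg, Lmo2, Bmi1, Ndn, Eng and Cd27, and of these only Bmi1, Erg, Lmo2, Ndn and Eng had vector arrays that did not overlap the BCR/ABL arrays.

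Further genes of stem cells, from a list of 42 of which 40 were measured, held 0 calls in each comparison. With imatinib over BCR/ABL 29 were higher and 11 lower, at a median of 0.23, and over vector the counts were the same at a median of 0.25. Groups did not overlap for 20 that were higher with imatinib over BCR/ABL and for 6 that were lower, which is 50% and 15% of the list against 22.5% and 27.0% of all probe sets. Pdzk1ip1, a membrane protein of primitive cells, had a signal of 39.9 and 125 on the vector arrays, 80.2 and 73.6 on the BCR/ABL arrays, and 287 and 943 on the imatinib arrays, a log2 difference of 2.36 over BCR/ABL (adjusted p = 0.221). Sult1a1, a sulphotransferase, differed by 2.21 over BCR/ABL (adjusted p = 0.206) and by 3.42 over vector (adjusted p = 0.15). Kit differed by -0.63 in BCR/ABL against vector (adjusted p = 0.290) and by 1.14 with imatinib over BCR/ABL (adjusted p = 0.108). At the low end stood Clec1a at -1.56 and Alcam at -1 in BCR/ABL against vector, Cdkn1c at -0.48 with imatinib over BCR/ABL, and Clec1a at -0.69 and Mycn at -0.35 with imatinib over vector. The immediate early gene Egr1 ran the other way, at 1.33 (adjusted p = 0.165) and -1.64 (adjusted p = 0.108).

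Among 18 of 20 listed ligands and partners of the receptors, 0 passed in any comparison. Tgfbr2, a receptor that signals with Eng, had a signal of 1177 and 1152 on the vector arrays, 1027 and 995 on the BCR/ABL arrays, and 2061 and 1926 on the imatinib arrays. Both imatinib arrays lay above the other 4, at a log2 difference of 0.995 over BCR/ABL (adjusted p = 0.108). Bmpr2 stood next in that comparison at 0.71 (adjusted p = 0.124), and Acvrl1 and Dok2 were lowest at -1.07 and -0.50. In BCR/ABL against vector the ends of the list were Angpt2 at -0.89, Cd2 at -0.58, Tgfb1 at 0.46 and Dok2 at 0.90. With imatinib over vector they were Acvrl1 at -0.79, Angpt2 at -0.76, Smad7 at 0.51 and Tgfbr2 at 0.76.

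Polycomb partners of Bmi1 also held 0 calls among 14 of 15 listed genes, with medians of -0.01, 0.22 and 0.003 in the 3 comparisons. Pcgf5 at -0.53 and Cbx2 at -0.52 were lowest in BCR/ABL against vector, and Ring1 at 0.21 and Ezh1 at 0.22 highest. With imatinib over BCR/ABL, Eed at -0.37 and Ring1 at -0.24 were lowest and Ezh1 at 0.53 and Phc3 at 0.58 highest. With imatinib over vector, Cbx2 at -0.36 and Ezh2 at -0.34 were lowest and Rnf2 at 0.42 and Ezh1 at 0.75 highest.

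Of the early lymphoid genes, all 8 measured of 10 listed were lower in BCR/ABL than in vector with groups that did not overlap, at a median log2 difference of -2.11 (19.7% of all probe sets were lower without overlap), and 0 passed over all probe sets. Dntt, the template-independent DNA polymerase of lymphoid progenitors, had a signal of 8974 and 8366 on the vector arrays, 1750 and 1509 on the BCR/ABL arrays, and 971 and 3461 on the imatinib arrays. Rag1, a recombinase, had a signal of 1805 and 552 for vector, 8.38 and 69.3 for BCR/ABL, and 5.55 and 5.93 for imatinib. Il7r, the interleukin-7 receptor, had a signal of 2122 and 1001 on the vector arrays, 312 and 469 on the BCR/ABL arrays, and 2347 and 1216 on the imatinib arrays. It was thus low in BCR/ABL and at the vector level with imatinib, at a log2 difference of 2.04 over BCR/ABL (adjusted p = 0.146). Rag1 and Rag2 differed most in BCR/ABL against vector, at -4.42 and -3.19, and Mn1 and Notch1 least, at -1.27 and -0.81. With imatinib over BCR/ABL, Rag1 at -1.23 and Blnk at -0.84 were lowest and Ccr9 stood at 0.59. With imatinib over vector, Rag1 at -5.64 and Blnk at -3.82 were lowest, with Notch1 at -0.59 and Il7r at 0.19.

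Markers of some other cell types differed between groups or between replicates. The 10 B cell markers measured of 11 summed to a signal of 21479 and 4109 on the vector arrays, 1305 and 2330 on the BCR/ABL arrays, and 688 and 1783 on the imatinib arrays. Vector replicate 1, with the lowest level of 14 stem cell genes, thus held the highest B cell signal, although Pax5 stayed at or below 1.84 on all arrays. The 10 mast cell and basophil markers of 11 listed summed to 11905 and 6735 on the vector arrays, 37765 and 37658 on the BCR/ABL arrays, and 61576 and 51069 on the imatinib arrays. Of these, Cd200r3 (adjusted p = 0.0217) and Hdc, the histamine-forming enzyme (adjusted p = 0.0236), passed as higher in BCR/ABL than in vector. With imatinib against vector Cd200r3, Hdc and the tryptase gene Tpsab1 passed as higher (adjusted p = 0.0347, 0.0363 and 0.0484).

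Megakaryocyte markers, 7 of 8 listed, summed to 1830 and 2021 on the vector arrays, 3923 and 3326 on the BCR/ABL arrays, and 7021 and 6737 on the imatinib arrays, with 0 calls. The megakaryocyte sum thus followed the group order of Procr and Tie1, as did the mast cell and basophil sum. Granulocyte markers, 11 of 11, summed to between 51067 and 90568 with 0 calls, and monocyte markers, 9 of 9, to between 9555 and 20272 with 0 calls. Erythroid markers, 7 of 9, summed to 11480 and 5281 on the vector arrays, 7019 and 5239 on the BCR/ABL arrays, and 11300 and 4373 on the imatinib arrays, with 0 calls. This sum was lower on replicate 2 than on replicate 1 in each group. Of the 29 stem cell genes, 22 in vector and 26 with imatinib were higher on replicate 2. In BCR/ABL 22 were lower on replicate 2. T and NK cell markers, 7 of 9, and stromal markers, 6 of 6, also held 0 calls. The part of other cell types in the stem cell gene levels was not tested.

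**Figure D4:**
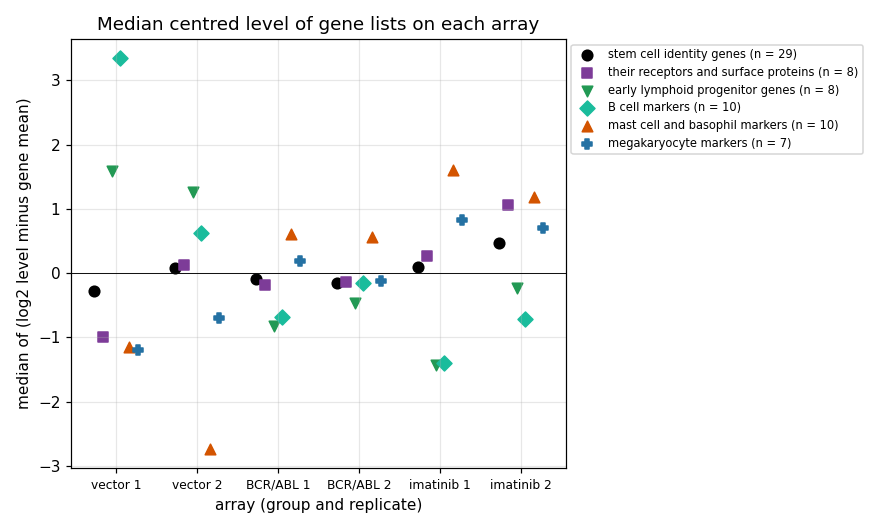
Median over each list of the log2 level minus the gene's mean over 6 arrays, for each array, with one symbol per list. B cell markers are highest in vector replicate 1 at 3.34, and the receptors among the stem cell genes run from -0.995 there to 1.06 in imatinib replicate 2.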

How the data were processed

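Values are the authors' deposited intensity values, 1 per probe set, made with Affymetrix Expression Console and MAS5 per the submitters' processing notes; no versions are given in the sources used. The 2% trimmed mean was 500 on each array, so arrays had been scaled. The design text names a whole-transcript array, but the probe set identifiers belong to the Mouse Genome 430 2.0 array. Detection calls were not used. After 64 controls were left out of 45101 probe sets, the 35877 with at least 1 symbol in the platform annotation were tested, of which 34945 had 1 symbol and 932 several; 9160 had none.

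Log2(signal + 16) was quantile normalized and fitted with limma 3.58.1 in R 4.3.3 (lmFit, eBayes with trend) over all 6 arrays, with 3 residual and 2.97 prior degrees of freedom. Tests were two-sided, adjusted by Benjamini-Hochberg over 35877 probe sets at 0.05. In each comparison the 8 genes of the list with the smallest p were to be named, and further genes were named from their values. Alternatives were other constants, scalings, filters, priors, a replicate block and leaving out each array. Replicate deviations correlated at -0.08, 0.16 and 0.15 between groups, so the numbers were not taken to pair samples. Simulated data were used to test the fit. The genes and lists were chosen with earlier results of these data known.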

Additional observations from a re-analysis of the deposited data

How the results depend on the processing

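The numbers of stem cell genes past the threshold stayed at 0 in all 3 comparisons with each array left out in turn, with a constant of 64, with a prior without trend and with the replicate block. For BCR/ABL against vector the number was 1 with a constant of 1, no further scaling, dim probe sets left out, a robust prior or averaged probe sets, and 2 with array medians. For imatinib against BCR/ABL it was 1 with array medians, and for imatinib against vector it was 1 with array medians or with dim probe sets left out. The count of 22 probe sets for BCR/ABL against vector was 83 with a constant of 1, 298 with array medians (265 higher, 33 lower), 189 with dim probe sets left out, 0 with a prior without trend and 42 with a robust prior, and 0 to 38 with 1 array left out. For imatinib against BCR/ABL the count of 0 was 3, 1200 (67 higher, 1133 lower) and 142 under the first 3 of these, and 0 with each array left out; 5238 probe sets had an unadjusted p under 0.05. The count of 16 for imatinib against vector (15 higher, 1 lower) was 78, 275 (201 higher, 74 lower), 188, 0 and 28 under the same 5 settings. It was 3 with a constant of 64, 9 with the replicate block and 0 to 50 with 1 array left out. The cause of these changes was not tested. Filtering left fewer probe sets to adjust over and also refitted the prior on those kept.

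With 1 array left out, median log2 differences of the stem cell genes ran from -0.24 to 0.12 for BCR/ABL against vector, 0.20 to 0.61 for imatinib against BCR/ABL and 0.12 to 0.64 for imatinib against vector; a lone array is then assumed to vary like the other groups. With array medians Fli1 and Bmi1 reversed to -0.037 and -0.124 for imatinib against BCR/ABL, where all genes shifted by -0.27. Of 360 checks on named genes, 348 left direction and side of the threshold as reported, 10 brought a call and 2 reversed. The filter, the priors and the replicate block cannot alter a log2 difference, so direction was fixed in those checks. No named gene passed at the start, so a call could be gained but not lost. The tally is therefore a weak measure of stability. The samples share only a replicate number, and the replicate block changed no call of a stem cell gene. The counts of genes higher or lower under each setting were added after seeing the data. Without detection calls, a low signal cannot be separated from background.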
